A study of Mus musculus with 6 samples.

Results

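The genes described here carry fatty acids from circulating triglyceride into the adipocyte. They are 10 in number, namely *Lpl*, *Gpihbp1*, *Angptl4*, *Cd36*, *Slc27a1*, *Slc27a2*, *Slc27a4*, *Fabp3*, *Fabp4* and *Fabp5*, and were taken by symbol from the 19445 gene loci of the FPKM table, where each has 1 row. RNA-Seq was performed on inguinal white adipose tissue (iWAT), a subcutaneous depot, of 3 *Hlx* transgenic mice and 3 wild-type littermates. Mice of both groups were 12 weeks old and labelled male. In the transgenic strain the *Hlx* cDNA follows a fragment of the *aP2* promoter, which is the promoter of *Fabp4*, 1 of the 10 genes. Strain founders came from hybrid C57BL/6 × SJL embryos and were backcrossed to C57BL/6. FPKM is a read density corrected for transcript length and library size, so levels may be compared between genes.

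Lipoprotein lipase (LPL) is made by adipocytes and hydrolyzes triglyceride of circulating lipoproteins at the capillary wall. GPIHBP1, a protein of capillary endothelial cells, carries LPL to the vessel lumen and anchors it there, and ANGPTL4, a protein secreted by adipocytes, inactivates LPL. The fatty acids released enter cells with the help of the surface protein CD36 and of the fatty acid transport proteins of the Slc27a family, which also have acyl-CoA synthetase activity, and are bound inside the cell by small fatty acid binding proteins (FABPs). FABP4 is the main form of adipocytes, FABP3 that of heart, muscle and brown fat, and FABP5 that of skin and macrophages. Brown fat is known for taking up large amounts of fatty acid from the circulation.

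The libraries were checked before the genes were compared. In transgenic iWAT, *Hlx* stood at 96.2 ± 15.3 FPKM against 7.45 ± 0.637 FPKM in the wild type (SD, n = 3 each), a value that transgene and endogenous transcripts share. The noncoding RNA *Xist*, made from the inactive X chromosome, had between 20.2 and 33.6 FPKM in the 6 samples, and all 28 loci of the Y chromosome were at 0 in each sample, which goes against the label male in both groups alike. Of the 8 adipocyte markers on the table all were over 1 FPKM, as were all 8 brown adipocyte markers, of which 7 were higher in transgenic iWAT. Markers of skeletal muscle summed to 175, 835 and 210 FPKM in transgenic replicates 1, 2 and 3 and to 49, 204 and 86.3 FPKM in the wild-type replicates. Of the macrophage markers, 5 of 10 were lower in transgenic iWAT. Epithelial markers summed to between 145 and 289 FPKM in transgenic and between 239 and 328 FPKM in wild-type iWAT, with none of 11 called. Read depth per library is unknown, so no counting error can be given for levels near 1 FPKM.

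*Fabp3* and *Slc27a2* are the genes with the largest differences below, and their promoters are therefore shown. Sequences are from RefSeq (GRCm38.p6, the build also called mm10), with 250 bases before and 50 after the annotated start site. Promoters were found for 5 of the 10 genes (7 start sites in all), and none for *Lpl*, *Gpihbp1*, *Fabp4*, *Fabp5* and *Angptl4*. *Fabp3* is at chr4:130308488-130308787 on the plus strand, and capitals mark TGACGT, a half-site of the cAMP response element, 149 bases before the start site. *Slc27a2* is at chr2:126552774-126553073 on the plus strand, and capitals mark TGACCT, the reverse complement of AGGTCA, the hexamer bound by many nuclear receptors, 220 bases before the start site. In GENCODE the *Slc27a2* gene starts earlier, at 126552407, so its whole window, with the marked letters, lies inside that annotated gene. The GENCODE gene of *Fabp3* also starts earlier, at 130308595, directly after the marked letters. The distance of 149 bases thus holds for the RefSeq start site only, and the rest of that window lies inside the GENCODE gene.
Fabp3: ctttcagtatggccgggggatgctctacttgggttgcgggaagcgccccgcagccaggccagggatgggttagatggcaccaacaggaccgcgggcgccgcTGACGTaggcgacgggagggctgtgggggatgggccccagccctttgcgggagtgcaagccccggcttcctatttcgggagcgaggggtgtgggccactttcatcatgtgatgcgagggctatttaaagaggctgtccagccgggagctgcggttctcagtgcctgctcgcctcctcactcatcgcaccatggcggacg
Slc27a2: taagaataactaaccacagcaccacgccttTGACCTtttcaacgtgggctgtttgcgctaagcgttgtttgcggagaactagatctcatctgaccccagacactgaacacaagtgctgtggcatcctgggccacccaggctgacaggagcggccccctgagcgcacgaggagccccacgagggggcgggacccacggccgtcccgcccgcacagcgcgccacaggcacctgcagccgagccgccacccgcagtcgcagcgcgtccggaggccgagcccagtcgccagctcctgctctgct

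The letters were searched on both strands of 32851 promoters of the same length. TGACGT was in 7.51% of them and, among the genes with a promoter here, in *Fabp3*. AGGTCA was in 16.3% and in *Slc27a2* and *Cd36*. AGGTCANAGGTCA, an exact spelling of the form in which PPAR and RXR bind as a pair, was in 13 promoters (0.0396%) and in none of the 5 genes. So rare a spelling is expected to be absent from 5 genes, and its absence carries no information on PPAR sites. TATAAA (13.6% of promoters) was in none of them, CCAAT (37.4%) was in *Cd36* and *Slc27a1*, and GGGCGG (35.7%) was in *Cd36*, *Slc27a1*, *Slc27a2* and *Slc27a4*. A match describes the letters of the window and not a bound site.

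*Fabp3* and *Slc27a2*, both with means under 1 FPKM in wild-type iWAT, rose in transgenic iWAT, *Lpl* fell, and the other 7 genes were not called. Among the 11692 loci with a mean over 1 FPKM in at least 1 genotype, 18.6% were called in either direction at an adjusted p under 0.05 (limma on log2(FPKM + 1), Benjamini-Hochberg adjustment), 11.6% as higher and 7.03% as lower. All 10 genes passed this filter, but *Fabp3* and *Slc27a2* passed through the transgenic mean alone, so counts over the 10 genes are a description. With a ratio of at least 2-fold required as well, the same 2 genes were higher and none was lower, where the shares over all tested loci were 3.53% and 1.74%. The median log2 fold change was -0.10 over the 10 genes and -0.01 over all tested loci, and the median absolute value was 0.38 against 0.21. Genotypes did not overlap at 5 of the 10 genes, where the share over all tested loci was 42.9%. The share of adipocytes in the tissue and the RNA per adipocyte cannot be told apart in bulk samples.

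**Figure D1:**
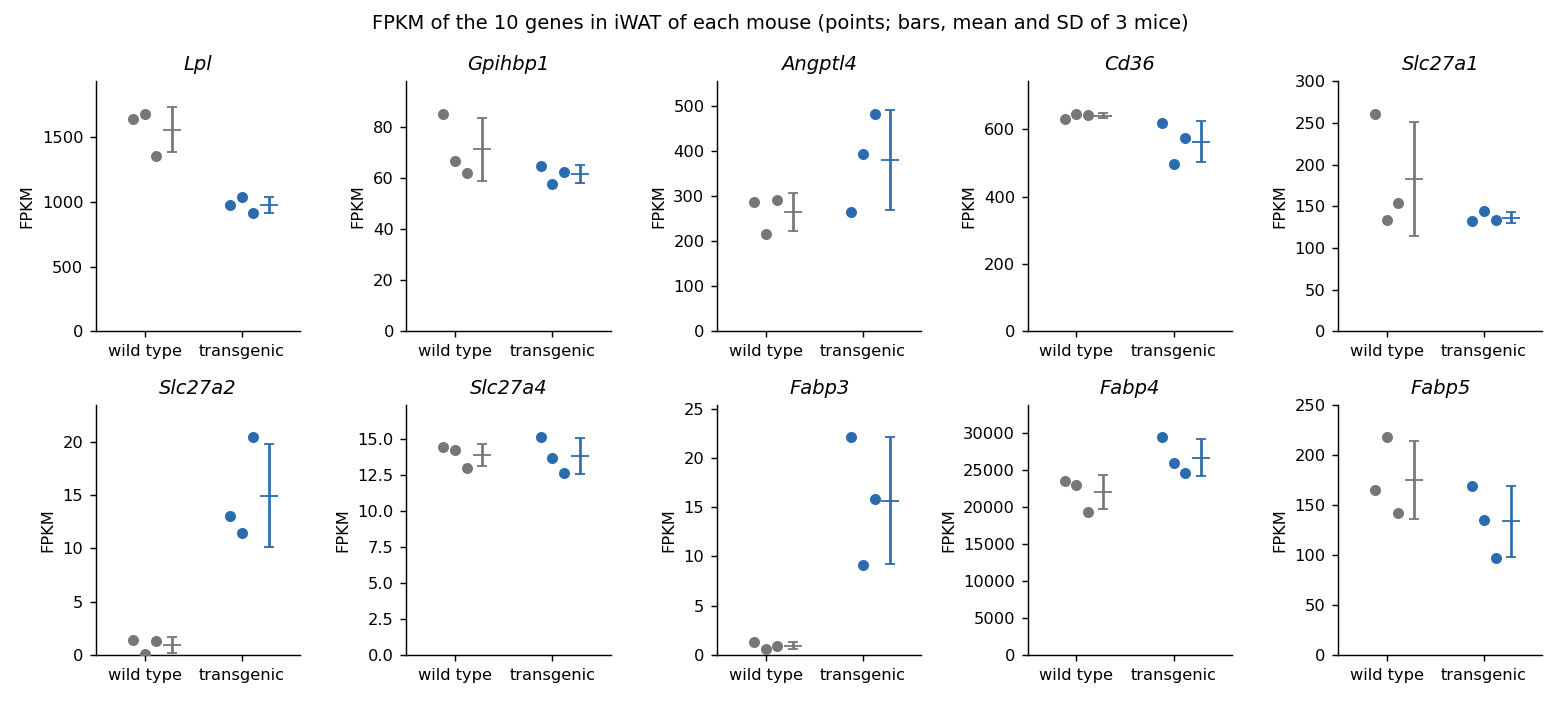
FPKM of each of the 10 genes in iWAT of each mouse (points, linear axes from 0) with the mean and SD of 3 mice per genotype. The transgenic points of *Fabp3* and *Slc27a2* are far above the wild-type points, those of *Lpl* are all below them, and the points of *Gpihbp1*, *Angptl4*, *Slc27a1*, *Slc27a4* and *Fabp5* overlap between genotypes.

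**Figure D2:**
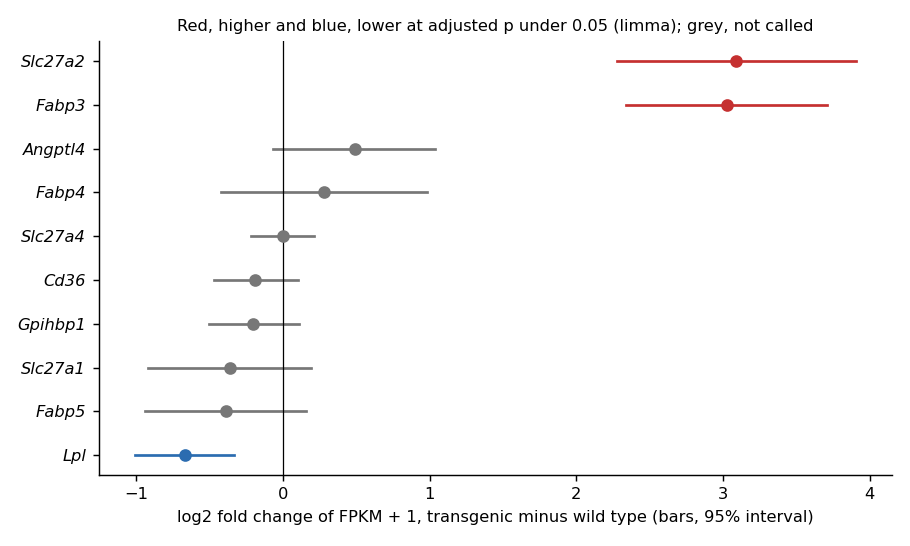
Log2 fold change of FPKM + 1, transgenic minus wild type, with its 95% interval from limma, for the 10 genes in order of size. The intervals of *Slc27a2* (2.28 to 3.91) and *Fabp3* (2.34 to 3.71) lie above 0, that of *Lpl* (-1.01 to -0.33) lies below 0, and the other 7 include 0.

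The lipase and its partners on the vessel wall were compared first. *Lpl* (chromosome 8, 68832078 to 68906937 in the table, with the GENCODE gene starting at 68880491) had 978, 1038 and 913 FPKM in the transgenic mice and 1638, 1683 and 1359 FPKM in the wild-type mice. Every transgenic mouse was below every wild-type mouse, and the transgenic mean was 62.6% of the wild-type mean. Its log2 fold change in limma was -0.67, with a standard error of 0.14 and an adjusted p of 0.0209. The fall kept its direction with each mouse left out in turn, with log2 fold changes between -0.77 and -0.61, but the adjusted p then ranged from 0.0332 to 0.0805 and the call was lost in 4 of these 6 fits, those without transgenic replicate 1 (0.0548) or 3 (0.0805) or without wild-type replicate 1 (0.056) or 2 (0.0743). Without the filter on low values it was 0.128. Of the 8 adipocyte markers on the table, 3 were lower (*Adipoq*, *Cfd* and *Retn*) and 5 were not called, *Plin1* and *Lipe* among them, at 0.04 and 0.05 on the log2 scale (limma adjusted p of 0.823 and 0.782). Their sum lay between 9673 and 15545 FPKM in transgenic and between 24942 and 40711 FPKM in wild-type iWAT. *Cfd* was the largest term of this sum in every mouse. It had 3955, 9289 and 5088 FPKM in transgenic and 30042, 16189 and 20568 FPKM in wild-type mice, so the sum mostly follows *Cfd*. The part of these markers in the *Lpl* level was not tested.

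*Gpihbp1* (chromosome 15, 75596523 to 75599444) had 64.9, 57.7 and 62.5 FPKM in transgenic and 85.4, 66.8 and 62 FPKM in wild-type mice. The genotypes overlapped, and wild-type replicate 1 was the highest of the 6. In limma the log2 fold change was -0.20, with a 95% interval from -0.50 to 0.11 (adjusted p = 0.312), and it was -0.06 without wild-type replicate 1. Markers of endothelial cells, the source of *Gpihbp1*, summed to between 221 and 237 FPKM in transgenic and between 222 and 231 FPKM in wild-type iWAT, and all 12 were over 1 FPKM. Of these 12, *Kdr* and *Emcn* were higher, *Cldn5* was lower and 9 were not called.

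*Angptl4* (chromosome 17, 33773833 to 33781883) had 264, 394 and 483 FPKM in transgenic and 287, 216 and 292 FPKM in wild-type mice. Transgenic replicate 1 lay within the wild-type range and the other two transgenic mice above it. It differed by 0.49 on the log2 scale (95% interval from -0.07 to 1.04, adjusted p = 0.181, limma), and it depended on single mice: 0.73 (adjusted p = 0.0498) without transgenic replicate 1 and 0.30 (adjusted p = 0.407) without transgenic replicate 3. After quantile normalization, which gives each library the same distribution of values, it was 0.15 (adjusted p = 0.687).

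Levels were then related to each other within each mouse, which removes differences of scale between libraries. *Angptl4* to *Lpl*, inhibitor to enzyme, was 0.27, 0.38 and 0.529 in transgenic mice, compared with 0.175, 0.129 and 0.215 in wild-type mice. The ratio was higher in each transgenic mouse than in each wild-type mouse, by 1.16 on the log2 scale. *Lpl* to *Gpihbp1* was 15.1, 18 and 14.6 in transgenic and 19.2, 25.2 and 21.9 in wild-type mice, a log2 difference of -0.47 with no overlap. *Lpl* to *Adipoq* was 0.722, 0.713 and 0.714 in transgenic and 0.562, 0.688 and 0.652 in wild-type mice, a log2 difference of 0.18, or 0.10 without wild-type replicate 1. *Adipoq* is 1 of the 3 adipocyte markers that fell (-0.85 on the log2 scale, limma adjusted p = 0.0172), and ratios to the 5 that were not called were not computed. *Gpihbp1* to the geometric mean of the 12 endothelial markers overlapped between genotypes, with a log2 difference of -0.17.

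In all, 8 such ratios were compared, and 7 of them did not overlap between the genotypes. Each of the 7 holds *Lpl*, *Fabp3*, *Fabp4* or *Slc27a2*, whose own levels did not overlap. The share among ratios of other gene pairs was not computed, so the count is a description. For these 7 the exact permutation test (two-sided) gave p = 0.1, the smallest that 3 mice against 3 allow, or 0.114 with Benjamini-Hochberg adjustment, and for *Gpihbp1* to endothelial markers it gave p = 0.4. This test thus cannot place a single ratio under 0.05 with 3 mice a group.

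**Figure D3:**
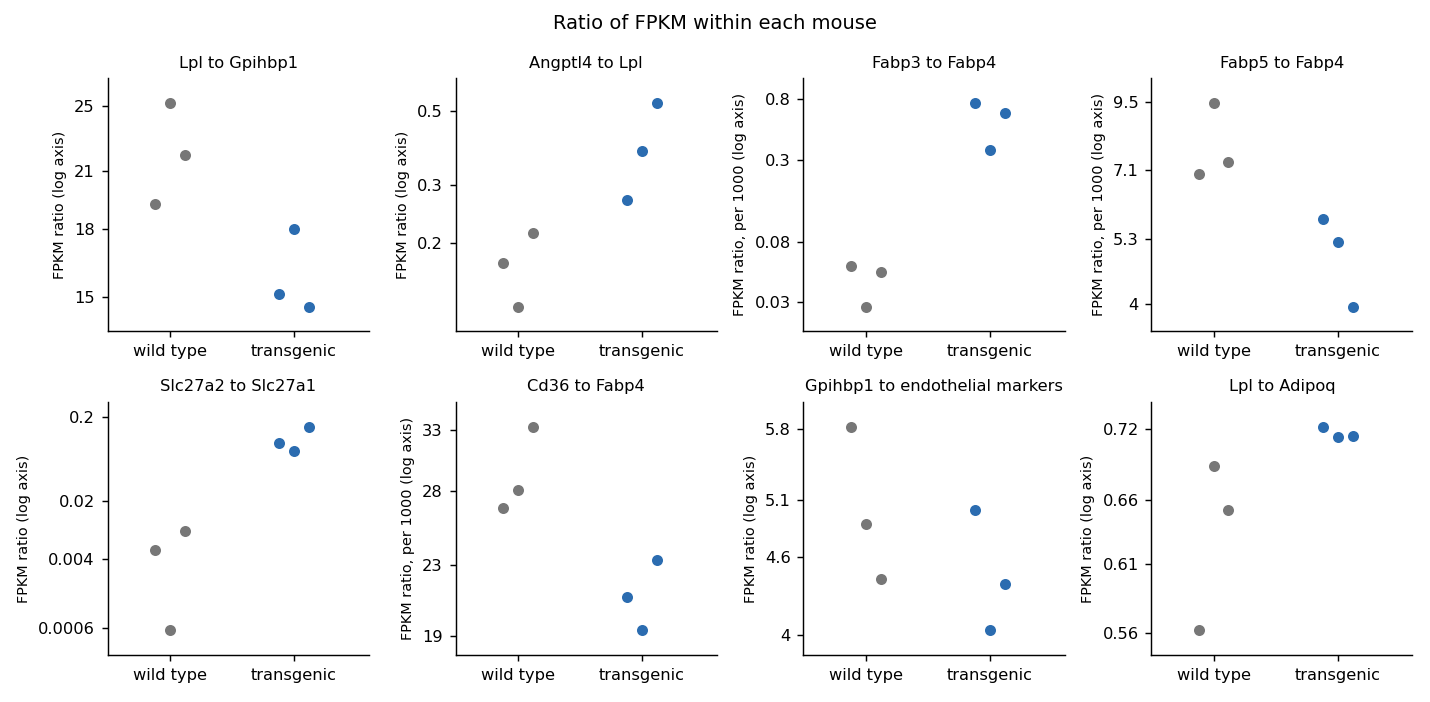
Ratio of FPKM between pairs of genes within each mouse, on log axes, with 3 mice per genotype. Ratios to *Fabp4* are per 1000. The transgenic points lie apart from the wild-type points in every panel except that of *Gpihbp1* to endothelial markers.

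Genes of uptake at the plasma membrane followed. *Cd36* (chromosome 5, 17781601 to 17888959) had 619, 498 and 573 FPKM in transgenic and 631, 646 and 642 FPKM in wild-type mice. All 3 transgenic mice were below the wild-type mice, transgenic replicate 2 the furthest and replicate 1 the least. On the log2 scale the difference was -0.19 (95% interval from -0.47 to 0.10, adjusted p = 0.298, limma). It was -0.10 without transgenic replicate 2, and -0.55 with an adjusted p of 0.0136 after quantile normalization.

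The 3 transport proteins behaved differently from one another. *Slc27a1*, or FATP1, the main form of adipocytes and muscle (chromosome 8, 71568854 to 71587763), had 132, 144 and 133 FPKM in transgenic and 261, 134 and 154 FPKM in wild-type mice. Wild-type replicate 1 stood apart from the other 5 mice, which lay close together. Between genotypes *Slc27a1* differed by -0.36 on the log2 scale (95% interval from -0.92 to 0.19, adjusted p = 0.303, limma), and by -0.08 without wild-type replicate 1. *Slc27a4*, or FATP4 (chromosome 2, 29802680 to 29817522), had 15.1, 13.7 and 12.6 FPKM in transgenic and 14.4, 14.2 and 13 FPKM in wild-type mice. Of the 10 genes it had the narrowest interval, with a log2 fold change from -0.22 to 0.21 around 0.00, which as a fold is from 0.86 to 1.16 (adjusted p = 0.973, limma).

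*Slc27a2*, or FATP2, also known as a very long-chain acyl-CoA synthetase of liver, kidney and peroxisomes (chromosome 2, 126552853 to 126591675), had 13, 11.4 and 20.4 FPKM in transgenic and 1.36, 0.0756 and 1.34 FPKM in wild-type mice. The lowest transgenic mouse was far above the highest wild-type mouse, and the ratio of the means was 16.2. In limma the log2 fold change was 3.09, with a standard error of 0.34 and an adjusted p of 0.00207. A pseudocount of 1 shrinks the change of so low a gene, and the value was 4.34 with a pseudocount of 0.1. When single mice were left out it stayed between 2.72 and 3.29, with an adjusted p of at most 0.0101. Of the 50-base windows of its GENCODE transcripts, 9.8% also occur in *Gm26697*, a noncoding gene that overlaps its 5′ end on the other strand. The library kit does not mark strand, and *Gm26697* has no row of its own in the table.

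*Slc27a2* made up 8.04%, 6.65% and 12.2% of the summed FPKM of the 6 fatty acid transport genes of transgenic mice, compared with 0.487%, 0.0505% and 0.782% of wild-type mice. *Slc27a1* made up between 79.6% and 84.5% in transgenic and between 89.4% and 93.6% in wild-type iWAT. The family thus remained dominated by *Slc27a1* in both genotypes, and its summed level was 161, 171 and 167 FPKM against 279, 150 and 171 FPKM. *Slc27a2* to *Slc27a1* was 0.0984, 0.0787 and 0.153 in transgenic and 0.0052, 0.000565 and 0.00865 in wild-type mice.

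Of the intracellular binding proteins, *Fabp4* (chromosome 3, 10204343 to 10208576) was by far the most abundant. It had 29363, 25850 and 24561 FPKM in transgenic and 23539, 22998 and 19297 FPKM in wild-type mice. Each transgenic mouse was above each wild-type mouse, and *Fabp4* ranked 1 among all loci of the table in the transgenic group and 2 in the wild-type group, where it took 5.11% and 4.52% of the summed FPKM. Its log2 fold change was 0.28 (95% interval from -0.42 to 0.98, adjusted p = 0.531, limma), and it was 0.58 (adjusted p = 0.212) after quantile normalization. The limma fit takes the variance in part from genes of like level (eBayes trend), and without that trend the adjusted p was 0.134. None of its 50-base windows occur in transcripts of other genes. Whether the transgene holds transcribed *Fabp4* sequence was not tested.

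*Fabp3* (chromosome 4, 130308361 to 130359983, a locus it shares with *Zcchc17*) had 22.1, 9.15 and 15.8 FPKM in transgenic and 1.27, 0.644 and 0.951 FPKM in wild-type mice. The lowest transgenic mouse was above the highest wild-type mouse, and the ratio of the means was 16.4. In limma the log2 fold change was 3.03, with a standard error of 0.29 and an adjusted p of 0.00119. It was 3.86 with a pseudocount of 0.1, and from 2.75 to 3.35 when single mice were left out (adjusted p of at most 0.00877). The 8 brown adipocyte markers summed to between 6180 and 7997 FPKM in transgenic and between 619 and 1053 FPKM in wild-type iWAT, and their part in the levels of *Fabp3* and *Slc27a2* was not tested.

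Of all 50-base windows of *Fabp3*, 37.3% also occur in other genes, namely 29.2% in the pseudogene *Fabp3-ps1*, 4.13% in *Zcchc17*, which overlaps its 3′ end by 81 bases on the other strand, and 4.01% in *Gm10570* at its 5′ end. *Zcchc17* had between 17.9 and 23.5 FPKM in transgenic and between 23.3 and 27.2 FPKM in wild-type mice, and was not called (-0.29 on the log2 scale, limma adjusted p = 0.115). Skeletal muscle also makes *Fabp3*, and its markers had a median log2 fold change of 2.17, with the highest sum in transgenic replicate 2. Their part in the *Fabp3* level was not tested. No muscle marker was at 0 in all samples, and 1 of the 10 on the table, *Myl1*, was called as higher.

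*Fabp5* (chromosome 3, 10012561 to 10016610) had 169, 135 and 97.3 FPKM in transgenic and 165, 218 and 142 FPKM in wild-type mice. The genotypes overlapped, with a log2 fold change of -0.39 (95% interval from -0.94 to 0.16, adjusted p = 0.264, limma). The value was -0.18 without transgenic replicate 3 and -0.22 without wild-type replicate 2. Macrophage markers summed to between 614 and 897 FPKM in transgenic and between 1106 and 1518 FPKM in wild-type iWAT, with all 10 over 1 FPKM, and their part in the *Fabp5* level was not tested. Windows of *Fabp5* are shared with other genes at 5.48%, mostly with *Gm6166*.

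Within the FABP family the rank order was fixed by *Fabp4*, which held between 99.1% and 99.5% of the summed FPKM of 9 family genes in every mouse. *Fabp3* held 0.0749%, 0.0352% and 0.0641% in transgenic and 0.00537%, 0.00277% and 0.00489% in wild-type mice. *Fabp3* to *Fabp4* was 0.754, 0.354 and 0.644 per 1000 in transgenic and 0.0541, 0.028 and 0.0493 per 1000 in wild-type mice, a log2 difference of 3.72. *Fabp5* to *Fabp4* was 5.76, 5.23 and 3.96 per 1000 in transgenic and 7, 9.47 and 7.34 per 1000 in wild-type mice, and *Cd36* to *Fabp4* was 21.1, 19.3 and 23.3 per 1000 against 26.8, 28.1 and 33.3 per 1000. Both ratios were lower in every transgenic than in every wild-type mouse, with log2 differences of -0.68 and -0.47.

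**Figure D4:**
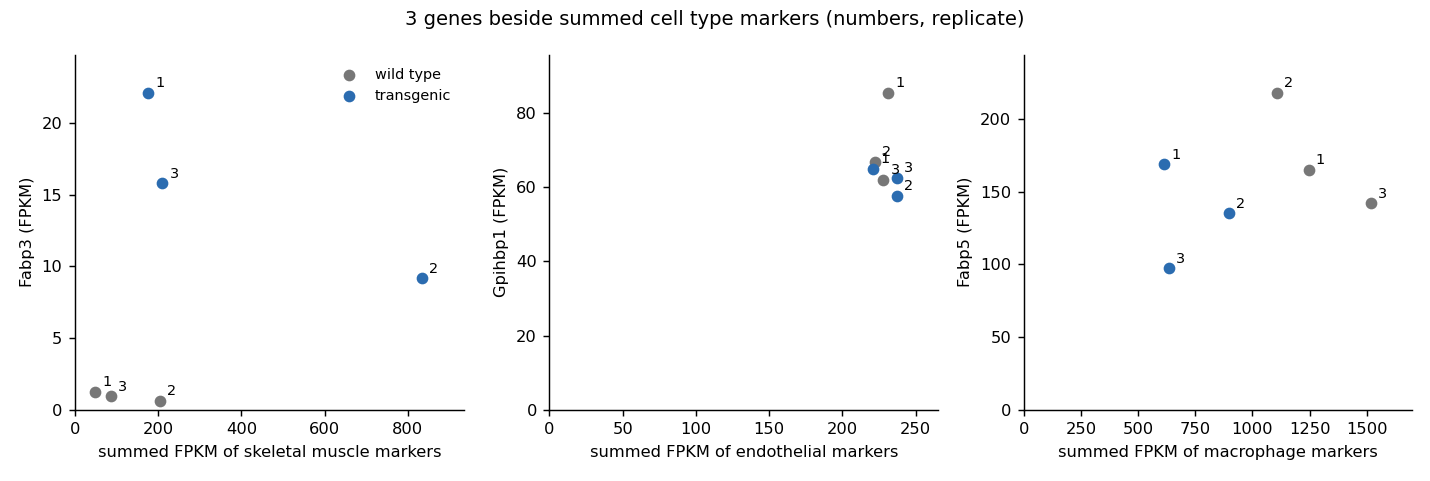
FPKM of *Fabp3*, *Gpihbp1* and *Fabp5* in each mouse (numbered by replicate) against the summed FPKM of markers of skeletal muscle, endothelial cells and macrophages. Among the transgenic mice, the one with the highest muscle marker sum, 835 FPKM, had 9.15 FPKM of *Fabp3*, and the wild-type mice had at most 1.27 FPKM. Endothelial sums lay between 221 and 237 FPKM in all mice, and macrophage sums were lower in each transgenic mouse than in each wild-type mouse.

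In wild-type iWAT the order of the levels was *Fabp4* (mean 21945 FPKM), *Lpl* (1560), *Cd36* (640), *Angptl4* (265), *Slc27a1* (183), *Fabp5* (175), *Gpihbp1* (71.4), *Slc27a4* (13.8), *Fabp3* (0.956) and *Slc27a2* (0.923). Ranges over 3 mice overlapped between *Angptl4* and *Slc27a1*, between *Slc27a1* and *Fabp5* and between *Fabp3* and *Slc27a2*. Within each wild-type mouse, however, *Angptl4* was above *Slc27a1* (287 against 261, 216 against 134 and 292 against 154 FPKM). For *Slc27a1* with *Fabp5*, and for *Fabp3* with *Slc27a2*, the order changed from mouse to mouse. In transgenic iWAT the first 7 genes stood in the same order, with mean FPKM of 26591, 977, 564, 380, 136, 134 and 61.7. Again *Angptl4* was above *Slc27a1* in each mouse, here without overlap of the ranges, while *Slc27a1* and *Fabp5* overlapped. *Fabp3* (15.7) and *Slc27a2* (14.9) had drawn level with *Slc27a4* (13.8), and the ranges of these neighbors overlapped.

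The loci whose log2(FPKM + 1) followed each gene most closely over the 6 samples were listed by Pearson's r, as a description in which all points share library and genotype. For *Slc27a2* the closest was *Ppara*, a fatty acid-activated nuclear receptor (r = 0.9972), before *Sec24a* (0.9971) and *Cxcl14* (0.9958). For *Fabp3* they were *Gfm1* (0.9990), a mitochondrial translation factor, *Acadm* (0.9987), the medium-chain acyl-CoA dehydrogenase, and *Hsdl2* (0.9985). All 6 of these loci were higher in transgenic iWAT, by between 0.33 (*Sec24a*) and 2.63 (*Ppara*) on the log2 scale. For *Lpl* the closest were *Igfbp4* (0.9980), *Slco2b1* (0.9975) and *Zfp330* (0.9966), at -0.66, -0.47 and -0.25 on the log2 scale, and *Igfbp4* and *Slco2b1* were called as lower. Genes closest to the 7 uncalled genes were themselves not called, with r between 0.9621 (*Chd9* for *Cd36*) and 0.9959 (*Mrpl24* for *Fabp4*). Loci picked by r over these same samples tend to share the direction and call of their gene, so these calls are no separate result.

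Other genes of intravascular lipolysis and fatty acid uptake were taken from 9 lists of 51 genes by role. Of these, 48 had a row of their own on the table and 38 were tested. Of the 38, 4 were higher, 4 were lower and 30 were not called, with a median log2 fold change of 0.02. *Acsl3*, which shares a row with *Utp14b* (log2 fold change -0.01, limma adjusted p = 0.981, not called), was not counted. The share called is close to that over all tested loci in either direction (18.6%).

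Among genes that mature or control LPL, 2 of 7 tested were lower and none was higher. *Pcsk6*, a proprotein convertase that can cleave LPL, had 21.8, 22.1 and 19.3 FPKM in transgenic and 34.3, 38.4 and 29.1 FPKM in wild-type mice (log2 fold change -0.65, adjusted p = 0.0106, limma). *Pcsk5*, a related convertase, differed by -0.53 on the log2 scale (limma adjusted p = 0.0402), a call not kept in 7 of 13 alternatives, with an adjusted p of up to 0.121. *Lmf1*, the chaperone that lets LPL fold, differed by 0.33 (adjusted p = 0.132).

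Of lipoprotein cofactors and receptors, 1 of 9 tested was higher. *Apoc1*, an apolipoprotein that can inhibit LPL, had 575, 703 and 511 FPKM in transgenic and 414, 256 and 362 FPKM in wild-type mice (log2 fold change 0.81, adjusted p = 0.0376, limma). The genotypes did not overlap, but the call was not kept in 8 of 13 alternatives, with an adjusted p of up to 0.182. The lipoprotein receptor *Vldlr* differed by 0.17 on the log2 scale (adjusted p = 0.309), and the LPL activator *Apoc2* by 0.33 (adjusted p = 0.493). The tested gene of the related vascular lipases, *Lipg*, had -0.21 (adjusted p = 0.386), and that of the other transport proteins, *Slc27a3*, had -0.41 (adjusted p = 0.0761).

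*Fabp1*, the liver form, was the single tested gene of the other FABPs. It had 0.352 and 0.193 FPKM in transgenic replicates 2 and 3, was listed at 0 in transgenic replicate 1, and had 1.28, 1.04 and 1.74 FPKM in wild-type mice (log2 fold change -0.99, adjusted p = 0.0113, limma). *Fabp1* passed the filter on low values through the wild-type mean alone, and its log2 fold change was -2.59 with a pseudocount of 0.1. None of the 6 tested genes that act with CD36 or form caveolae was called, with log2 fold changes between -0.55 (*Cav1*, adjusted p = 0.0723) and 0.18 (*Zdhhc4*).

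Acyl-CoA synthetases and the acyl-CoA binding protein take over fatty acids once inside the cell. Here *Acsl5*, a synthetase of mitochondria and endoplasmic reticulum, rose from 38.4, 30.7 and 37.8 FPKM in wild-type to 114, 154 and 113 FPKM in transgenic mice (log2 fold change 1.80, standard error 0.15, adjusted p = 0.000792, limma). *Acsl1*, the most abundant synthetase of the list, had 733, 687 and 723 FPKM in transgenic and 742, 538 and 560 FPKM in wild-type mice, a log2 difference of 0.23 (adjusted p = 0.298). The other 2 genes with a tested row of their own, *Acsl4* and *Dbi*, were not called.

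No gene of the endothelial regulators of fatty acid transport was called, with log2 fold changes of 0.52 for *Nrp1* (adjusted p = 0.0623), 0.49 for *Tcf15* (0.103), 0.44 for *Flt1* (0.0654) and -0.52 for *Meox2* (0.0921). Of the PPAR regulators, *Ppara* had 27.1, 27.8 and 43 FPKM in transgenic and 6.17, 2.54 and 4.85 FPKM in wild-type mice (log2 fold change 2.63, standard error 0.29, adjusted p = 0.00192, limma). The coactivator *Ppargc1a* was higher (0.51, adjusted p = 0.0122) and the PPAR partner *Rxra* was lower (-0.51, adjusted p = 0.0133). *Pparg*, the main PPAR of adipocytes, and *Ppard* had log2 fold changes of -0.02 and -0.03 (adjusted p = 0.973 and 0.862).

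**Figure D5:**
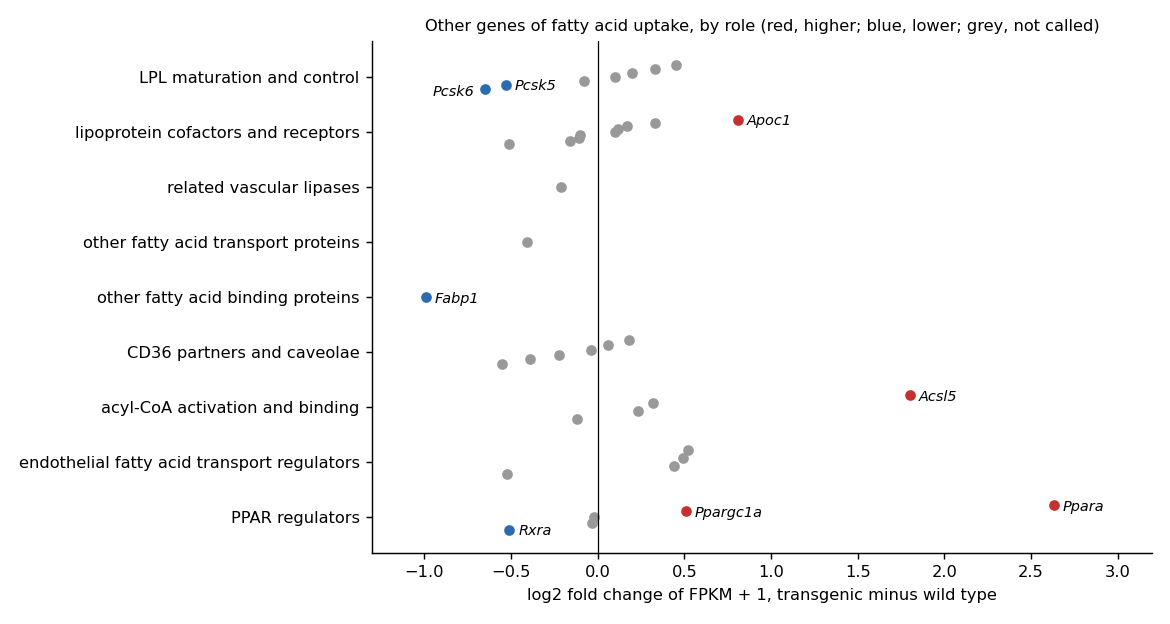
Log2 fold change of FPKM + 1, transgenic minus wild type, of the 38 other genes of fatty acid uptake that were tested, grouped by role. *Ppara* (2.63) and *Acsl5* (1.80) lie far to the right, and *Fabp1* (-0.99) lies furthest to the left.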

How the data were processed

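RNA from iWAT of 6 mice was sequenced by the authors, 1 TruSeq library per mouse. They mapped reads to mm10 with TopHat and quantified genes with Cufflinks. The processing notes name CASAVA 1.8.2, TopHat2 2.0.9, Bowtie2 2.1.0 and Cufflinks 2.2.1. Options and annotation are not given in the sources used here. The authors deposited FPKM per gene locus and mouse, and no read counts were used, so absolute depth is unknown. Table starts count from 0 and were raised by 1.

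All tested loci (mean FPKM over 1 in at least 1 genotype) were fitted together with limma 3.58.1 in R 4.3.3 on log2(FPKM + 1), with eBayes trend, two-sided, without covariates. The fit was tested on simulated data with normal noise, where 83% of 2-fold and 91% of 3-fold changes were recovered and 4.92% of calls were false. Changes were placed only in loci above the wild-type level of *Fabp3* and *Slc27a2*, so the simulation does not cover genes that low. Ratios were tested by exact permutation over 20 arrangements (scipy 1.17.1). Shared sequence was counted as exact windows of 50 bases in GENCODE M21 transcripts. Figures used matplotlib 3.10.9.

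The members and lists were chosen with earlier results of these data known. Named are all members, the called list genes with the 3 largest changes per list, and the 3 loci most like each member; other list genes were named after their values were seen, as were the motifs chosen after the promoters were read. Replicate numbers did not pair the mice, and replicates are different animals.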

Additional observations from a re-analysis of the deposited data

How the results depend on the processing

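Calls of *Fabp3* and *Slc27a2* as higher were kept in all 13 other settings, with an adjusted p (limma) of at most 0.0213 and 0.0279. The number of the 10 genes called as lower, 1, was 0 without the filter on low values, 0 when at least a 2-fold ratio was required too, 2 with quantile normalization (*Lpl* and *Cd36*), and between 0 and 1 with each mouse left out. Without the filter, 748 loci were higher, 381 were lower and 2 list genes were lower; with a 2-fold ratio, 413 and 204 loci; with quantile normalization, 7 list genes were lower. With each mouse left out, between 780 and 1295 loci were higher and between 329 and 906 lower, the fewest without wild-type replicate 3 and transgenic replicate 3. *Slc27a4*, whose log2 fold change is 0.00 to 2 decimals, turned sign in 3 of these fits and ranged from -0.07 to 0.06. Samples of the same replicate number did not deviate together (r = 0.01, 0.03 and 0.07), and in these deviations from the group means no transgenic sample correlated best with its own number. With a replicate block, 1230 loci were higher and 656 lower, and no call among the 10 genes changed. Each symbol of the 10 has 1 row, so summing rows changes nothing. Depth is unknown and limits values near 1 FPKM, such as wild-type *Slc27a2* and *Fabp3*.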
